A study of Mus musculus with 16 samples.

Results

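Large peritoneal macrophages (LPM) and alveolar macrophages (AM) lacking Bhlhe40 were compared on 5 of the 16 arrays of a microarray series: 3 arrays of naive Bhlhe40KO LPM and 2 arrays of naive Bhlhe40KO AM, chosen by the genotype, treatment and cell type in the sample labels. All mice of the series were male C57BL/6, and those compared here were untreated. LPM came from peritoneal lavage and AM from lung digest, so the tissue and the way cells were taken from it cannot be told apart. The same comparison in Bhlhe40WT mice, with 3 naive LPM arrays and 2 naive AM arrays, served to ask which tissue differences are the same size with and without the gene. A further 6 LPM arrays from mice given IL-4c, an interleukin-4 complex (2 each of Bhlhe40KO, Bhlhe40LysM and Bhlhe40WT), entered the fit only to share its estimate of the spread. The labels name the knockout but not the allele, do not say how cells were purified, and do not say whether replicate arrays were separate mice or pools. P-values therefore describe the spread of the arrays at hand, and with so few arrays the precision is low.

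LPM and AM are resident macrophages that keep themselves largely by local renewal, and each depends on signals of its own tissue. In the peritoneal cavity retinoic acid, made by mesothelial and other stromal cells, induces the zinc finger factor GATA6, which drives much of the LPM program. In the lung GM-CSF and TGF-beta induce the nuclear receptor PPAR-gamma, which drives the AM program of surfactant lipid uptake and breakdown. Bhlhe40 is a basic helix-loop-helix repressor that binds E-box motifs and has a close paralog, Bhlhe41.

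Expression is given as RMA log2 signal, in which 1 unit is a doubling. Each difference is KO LPM minus KO AM on that scale with its standard error, so a positive value means higher in LPM, and a gene was called when its Benjamini-Hochberg adjusted p from limma was under 0.05 over the 11634 genes tested. The array gives no detection calls. Of the single-array values of 1035 olfactory receptor probe sets, which macrophages are not expected to express, 95% were 4.48 or less. A fold against a group below that level may be compressed by background. In whole-population RNA, fewer cells of a type and less RNA per cell cannot be told apart. Array medians lay between 4.79 and 4.93. KO LPM arrays correlated with each other at 0.99 to 0.992 and the KO AM pair at 0.995, against 0.939 to 0.943 between the tissues (Pearson, across probe sets).

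The targeted gene was lower on every KO array than on any WT array. Bhlhe40 (Entrez 20893) had a log2 signal of 6.79, 6.50 and 7.11 in KO LPM and of 7.53 and 7.75 in KO AM, against 8.66, 8.75 and 8.64 in WT LPM and 9.57 and 10.07 in WT AM. The KO values were still above the 4.48 level of olfactory receptor genes. The sources used here do not say where its probe set lies relative to the deletion, and the remaining signal was not assigned to a transcript. What signal there was stayed lower in KO LPM than in KO AM (log2 difference -0.85 ± 0.17 SE, adjusted p = 0.00087), although with the array of KO LPM replicate 3 as the only KO LPM array the difference was -0.54 (adjusted p = 0.062). The paralog Bhlhe41 was AM-high in the knockout, at 6.01, 5.43 and 5.79 in KO LPM and 8.67 and 8.77 in KO AM, a 7.87-fold difference (-2.98 ± 0.35, adjusted p = 3e-06). In WT it was -4.32, and the change in the tissue difference, 1.34 (95% interval 0.30 to 2.39), was not called (adjusted p = 0.28).

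The KO arrays carried the tissue identities their labels state. Of 33 tested genes on a list of LPM identity genes, 29 were higher in KO LPM and 2 lower, with a median difference of 5.29. Of 39 on a list of AM identity genes, 35 were lower in KO LPM and 1 higher, with a median of -3.91. For comparison, 40.0% of all tested genes were called (17.3% higher and 22.8% lower in KO LPM) and their median difference was -0.01. The same shares are the background for each list count given below. The defining surface markers separated without overlap. Icam2, an adhesion molecule used to sort LPM, was 10.79, 10.78 and 10.75 in KO LPM and 5.15 and 5.25 in KO AM (47.6-fold). Timd4, a receptor for phosphatidylserine on dying cells, was 9.83, 10.03 and 9.86 in KO LPM and 4.76 and 4.47 in KO AM (39.1-fold). Itgax, the CD11c integrin chain that marks AM, was 3.58, 3.71 and 3.27 in KO LPM and 10.17 and 10.09 in KO AM (97.5-fold lower in KO LPM, adjusted p = 7.4e-15). Adgre1, a marker of most tissue macrophages, was high in both, at 11.55, 11.45 and 11.59 in KO LPM and 9.81 and 9.75 in KO AM (3.36-fold higher in KO LPM).

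A few identity genes did not follow their list. Among LPM genes the crosslinking enzyme Tgm2 (-4.01) and the tetraspanin Cd9 (-2.05) were higher in KO AM, and Apoc1 (-0.85) and Laptm5 (-0.13) were not called. Among AM genes Fabp4, a fatty acid carrier, was 10.20, 10.26 and 10.55 in KO LPM and 9.29 and 9.45 in KO AM, so higher in KO LPM (0.97, adjusted p = 0.0015). The scavenger receptor Marco was 10.06, 8.68 and 8.92 in KO LPM and 9.78 and 9.71 in KO AM, with overlapping groups (-0.52, interval -1.25 to 0.20, adjusted p = 0.24). Without KO LPM replicate 1 that difference was -0.95 and was called (adjusted p = 0.014). Serpinb1a (0.19) and Mlph (-0.03) were not called.

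At least 4-fold differences were found at 326 genes higher (2.80% of those tested) and 368 lower (3.16%) in KO LPM. The arrays of the tissues did not overlap at 7094 genes (61.0%). Of the 12 genes with the largest rises, Prg4, the lubricating proteoglycan of joints and serosal surfaces, came first, with 12.54, 12.33 and 12.46 in KO LPM and 3.71 and 3.88 in KO AM (401-fold, 8.65 ± 0.12, adjusted p = 8.2e-17). Vsig4, a receptor for complement C3 fragments, was 11.79, 11.83 and 11.65 in KO LPM and 2.98 and 3.66 in KO AM (348-fold). It was followed by the acute-phase apolipoprotein Saa3 (8.15), the lipoxygenase Alox15 (8.09), the protease inhibitor Serpinb2 (7.85) and Itgam, the CD11b integrin chain (7.72). Itgam was 11.73, 11.40 and 11.71 in KO LPM and 3.98 and 3.80 in KO AM, that is, AM sat at background for it. C1qc (7.62) and C1qb (7.23), chains of the first complement component, Ifitm6 (7.58), the resistin-like protein Retnla (7.33), the B cell chemoattractant Cxcl13 (7.28) and Serpinb10 (7.26) completed the 12.

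On the AM side the 12 largest differences began with Fabp1, a fatty acid binding protein, which was 2.43, 2.64 and 2.47 in KO LPM and 10.86 and 10.67 in KO AM (305-fold lower in KO LPM, -8.25 ± 0.17, adjusted p = 1.5e-15). Atp6v0d2, a proton pump subunit, was 4.10, 4.12 and 3.90 in KO LPM and 12.11 and 12.15 in KO AM (-8.09). Chil3, the chitinase-like protein Ym1, was 6.09, 3.81 and 5.17 in KO LPM and 12.58 and 12.59 in KO AM (-7.56, adjusted p = 2.2e-10). Its KO LPM values were scattered, with an SD of 1.15, but none came near AM. The adaptor Sh2d1b1 (-7.65), the surface protein Plet1 (-7.44), carbonic anhydrase Car4 (-7.12), the fungal lectin receptor Clec4n (-6.73), cathepsin K, Ctsk (-6.70), Itgax (-6.61), keratin Krt19 (-6.53), the lipid droplet protein Cidec (-5.87) and the activating receptor Lilra5 (-5.75) made up the rest. In 11 of the 12 LPM-high genes and 9 of the 12 AM-high genes the lower group averaged under 4.48, so their folds are limited by background.

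**Figure D1:**
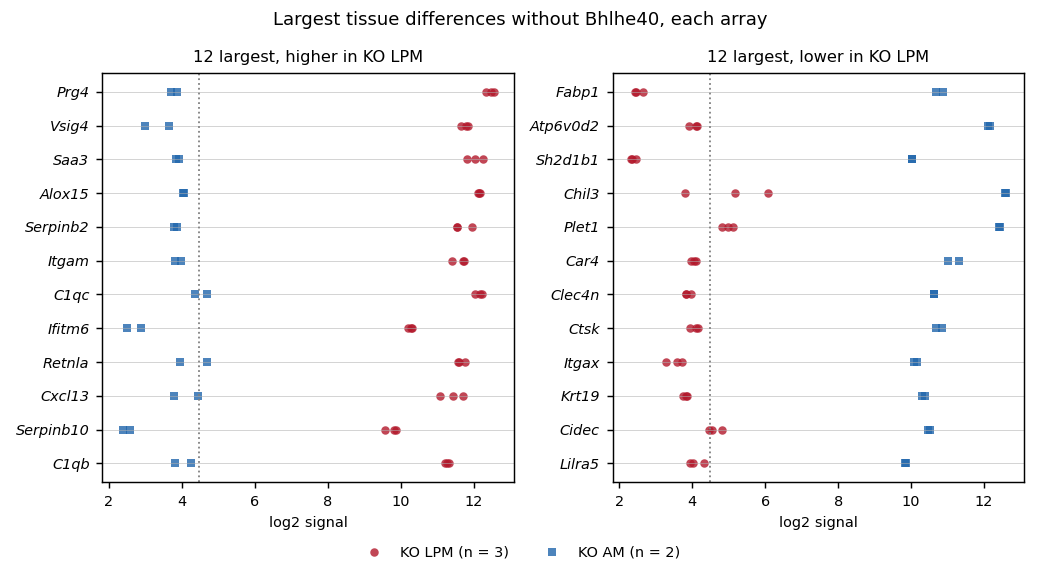
RMA log2 signal of the 12 genes with the largest called rises and the 12 with the largest falls in KO LPM relative to KO AM. Red circles are the 3 KO LPM arrays and blue squares the 2 KO AM arrays. The dotted line marks 4.48, the level under which 95% of the olfactory receptor values fell. The 24 genes were picked only among genes whose groups do not overlap.

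Transcription factors split by tissue. Of 39 tested factors of tissue macrophages, 11 were higher and 21 lower in KO LPM, with a median of -0.48. Gata6 (Entrez 14465) was 8.54, 8.75 and 8.72 in KO LPM and 4.36 and 4.65 in KO AM (18.0-fold, 4.17 ± 0.17, adjusted p = 8.7e-12). Rarb, the retinoic acid receptor that is itself induced by retinoic acid, was 7.71, 7.75 and 7.66 in KO LPM and 4.42 and 4.78 in KO AM (8.60-fold, adjusted p = 8.6e-12). Both pairs of groups lay far apart, with the AM arrays near background. The TGF-beta signal transducer Smad3 (3.52), Nfe2 (3.15), Maf (2.39), Klf2 (2.34) and Myc (1.07, adjusted p = 0.00032) were also higher in KO LPM. Maf, a bZIP factor of resident macrophages that restrains their division, was 6.83, 6.91 and 6.86 in KO LPM and 4.54 and 4.41 in KO AM (5.25-fold, adjusted p = 1e-08).

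Factors of the alveolar program lay on the other side. Pparg (Entrez 19016) was 5.34, 5.51 and 5.90 in KO LPM and 10.48 and 10.56 in KO AM (30.7-fold lower in KO LPM, -4.94 ± 0.16, adjusted p = 4.5e-13). Egr2, a zinc finger factor of AM, was 6.79, 6.10 and 6.23 in KO LPM and 11.39 and 11.54 in KO AM (34.0-fold lower, adjusted p = 1.6e-09). No array of KO LPM came within 4 log2 units of an AM array at either gene. Egr2 (-5.09) is also on the list of immediate early and dissociation stress genes given below. The part of lung digestion in its difference was not tested. The orphan receptor Nr4a1 (-3.66), Tfec (-3.04), Tcf7l2 (-2.95), Runx1 (-2.64), Klf4 (-1.48), the sterol receptor Nr1h3 (-1.29), Cebpa (-0.77) and Spi1, which encodes PU.1 (-0.48, adjusted p = 0.013), were lower in KO LPM too. Cebpb had 6.90, 7.21 and 7.29 in KO LPM and 7.08 and 7.01 in KO AM and was not called (0.09, interval -0.17 to 0.36). Irf8 was not called either (-0.24).

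**Figure D2:**
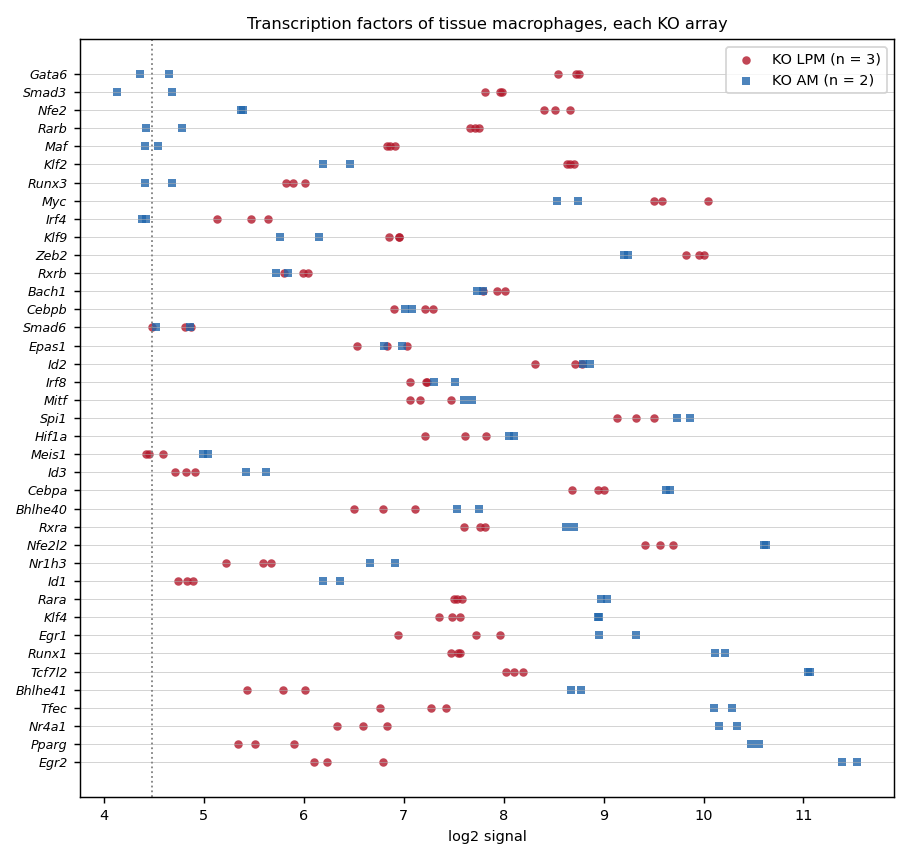
RMA log2 signal of transcription factor genes of tissue macrophages on the 3 KO LPM arrays (red circles) and the 2 KO AM arrays (blue squares), with the dotted line at 4.48. At Gata6, Smad3, Nfe2 and Rarb the KO LPM mean lies at least 3 log2 units above the KO AM mean, and at Egr2 and Pparg it lies more than 4 below it.

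Receptors for the growth factors that keep these cells alive differed in opposite directions. Of 14 tested, 3 were higher and 10 lower in KO LPM. Csf1r, the receptor for M-CSF, was 10.67, 10.72 and 10.68 in KO LPM and 8.66 and 8.49 in KO AM (4.34-fold, adjusted p = 3.5e-10). Csf2rb, the common beta chain of the GM-CSF receptor, was 7.63, 7.72 and 7.86 in KO LPM and 10.20 and 10.04 in KO AM (5.22-fold lower in KO LPM, adjusted p = 1.7e-09). Its near copy Csf2rb2 gave -2.32; probes of such close paralogs can share transcripts. The alpha chain Csf2ra differed less (-0.53, adjusted p = 0.0055). Tgfbr1, a TGF-beta receptor, was 7.35, 7.32 and 7.40 in KO LPM and 10.14 and 10.10 in KO AM (6.79-fold lower, adjusted p = 2e-11), whereas the co-receptor Eng was higher in KO LPM (2.83). Flt1, a VEGF receptor, was far lower in KO LPM (-5.23).

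In the retinoid list 3 of 12 tested genes were higher and 2 lower in KO LPM (median 0.25). The share called was near the 40.0% over all tested genes. Aldh1a2, the enzyme that makes retinoic acid, was 5.51, 6.29 and 6.07 in KO LPM and 4.67 and 4.4 in KO AM (1.43, adjusted p = 5.3e-05). Rarb and Rdh10 (0.66), a retinol dehydrogenase, were the others that were higher, and Rdh10 was not called without KO AM replicate 1 (adjusted p = 0.093). Rara (-1.47) and Tgm2 were lower.

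Lipid genes were mostly AM-high. Of 36 tested genes of fatty acid uptake, storage and oxidation, 27 were lower and 2 higher in KO LPM, with a median of -1.22, and of 16 tested genes of cholesterol synthesis 13 were lower and 0 higher (median -1.14). Lpl, which frees fatty acids from lipoproteins, was 8.93, 8.05 and 9.11 in KO LPM and 11.68 and 11.62 in KO AM (-2.96). Monoglyceride lipase Mgll (-5.46), the triglyceride-forming Dgat2 (-3.53), the desaturase Scd1 (-3.11) and lysosomal acid lipase Lipa (-2.07) were lower as well. Cyp51, a sterol demethylase, was 5.13, 4.89 and 4.99 in KO LPM and 7.34 and 7.46 in KO AM (5.27-fold lower), and Hmgcs1 differed by -1.83. The fatty acid synthesis enzyme Acaca (1.78) and Fabp4 were the exceptions. Cd36, a fatty acid translocase, was 10.50, 10.84 and 10.84 in KO LPM and 10.34 and 10.36 in KO AM (0.38, interval -0.10 to 0.85, adjusted p = 0.20).

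Sterol export genes split. Apoe, the apolipoprotein that takes up exported sterol, was 12.72, 12.74 and 12.65 in KO LPM and 7.96 and 8.12 in KO AM (25.4-fold, 4.67, adjusted p = 1.9e-12). Abcg1, a sterol transporter, was 7.07, 7.03 and 6.96 in KO LPM and 10.62 and 10.34 in KO AM (11-fold lower). Of the 11 tested LXR and efflux genes 2 were higher and 6 lower, and the transporter Abca1 was not called (-0.27, interval -0.92 to 0.38).

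Complement and coagulation genes were largely LPM-high: 14 of 21 tested were higher and 5 lower, with a median of 0.95. All 3 C1q chains, the anaphylatoxin receptor C3ar1 (6.81), C4b (6.79), coagulation factor genes F5 (6.4) and F13a1 (6.17) and properdin, Cfp (3.44), were higher in KO LPM. The junction protein F11r was lower (-5.46), as were thrombomodulin, Thbd (-0.79, not called without KO AM replicate 1, adjusted p = 0.058), and the urokinase receptor Plaur (-1.5). Matrix and secreted factors also leaned to LPM at the top of the range, with Thbs1 (6.77), Ltbp1 (5.49), Ecm1 (4.95), Tgfb2 (3.66), Timp2 (3.16) and fibronectin, Fn1 (2.43), higher, and the proteases Mmp19 (-4.09) and Mmp8 (-3.63) and the growth factor Pdgfc (-3.49) lower. In all 10 of 22 such genes were higher and 6 lower.

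Adhesion and chemokine genes differed in both directions. Of 22 tested adhesion genes 9 were higher and 10 lower. KO LPM had more Itgam, Icam2, Itga6 (4.19), Itgb7 (3.56), Itga9 (3.26) and Itga4 (1.5), and KO AM more Itgax, Itgal (-4.03), Itgb5 (-3.92), Epcam (-3.72), Cd44 (-2.70) and the adhesion protein Emb (-4.20). Of 25 chemokine genes 10 were higher and 8 lower, or 5 lower without KO AM replicate 2. Pf4 was 12.09, 12.01 and 12.11 in KO LPM and 4.85 and 4.94 in KO AM (144-fold). Cxcl13, the eotaxin Ccl24 (5.74), the scavenging receptor Ackr3 (3.84) and Ccl9 (2.86) were LPM-high like it. The retention receptor Cxcr4 was 6.57, 6.33 and 7.24 in KO LPM and 10.89 and 10.79 in KO AM (-4.12).

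Receptors for debris and microbes were divided between the tissues. Of 27 tested scavenger and lectin receptors 8 were higher and 12 lower. The soluble pattern receptor Cd5l (6.89), Timd4, Stab1 (4.87), Lyve1 (4.70), Msr1 (4.62), Folr2 (3.66) and Cd163 (2.72) were higher in KO LPM. Clec4n, Olr1 (-5.06), the Gas6 receptors Axl (-4.74) and Mertk (-1.92), the mannose receptor Mrc1 (-3.91), Clec4a2 (-3.48), Clec12a (-3.13) and the beta-glucan receptor Clec7a (-3.09) were lower. Mrc1 was 7.22, 7.51 and 7.57 in KO LPM and 11.26 and 11.42 in KO AM, on the other side from Msr1, although both encode uptake receptors. Among 21 genes of Toll-like receptors and LPS recognition 10 were higher and 5 lower: Tlr1 (4.79), the LPS-binding protein Lbp (4.47) and the MD-1 gene Ly86 (2.93) on the LPM side, Tlr2 (-2.86) and Nlrp3 (-2.53) on the AM side. Tlr2, which pairs with TLR1, was 8.31, 8.02 and 8.27 in KO LPM and 11.07 and 11.05 in KO AM.

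Enzymes and granule proteins showed single large differences within mixed lists. Of 14 eicosanoid genes 6 were higher, led by Alox15, the prostacyclin synthase Ptgis (4.15) and the platelet-activating factor hydrolase Pla2g7 (4.04), and 5 were lower, led by the prostaglandin D synthase Hpgds (-2.92). Lyz1 was 12.11, 12.03 and 11.67 in KO LPM and 7.03 and 7.32 in KO AM (4.76), while its neighbour Lyz2 did not pass the test (0.00, interval -0.36 to 0.36). These are close paralogs, so shared probes cannot be set aside. Of 18 cathepsin and lysosomal genes 5 were higher and 7 lower, with 3 higher without KO AM replicate 1, KO AM replicate 2 or KO LPM replicate 3, and apart from Atp6v0d2 and Ctsk the called ones lay between -1.55 (Ctsc) and 1.41 (Lgmn). Among iron genes the ferroxidase Cp (3.86), haptoglobin, Hp (3.45), and the haem scavenger receptor Cd163 were higher, and ferritin chains Fth1 (-0.43) and Ftl1 (-0.41) were called lower but not under every alternative, Fth1 not without KO AM replicate 1 (adjusted p = 0.052) and Ftl1 not with a replicate block (adjusted p = 0.055). Glycolysis genes differed in both directions even at 1 step, with Pfkl (2.09) higher and Pfkp (-1.62) lower. Aldoc (-3.07), which acts at another step, was lower as well, in a list with 3 of 21 higher and 9 lower. For this list and the next, the shares over all tested genes were 17.3% higher and 22.8% lower. Genes of oxidative phosphorylation differed little: 8 of 26 were lower and 1 higher, the called differences lay between -0.66 (Atp5b) and 0.53 (Ndufa1), and the number lower ran between 2 and 12 over the alternatives, with 3 without KO AM replicate 1.

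**Figure D3:**
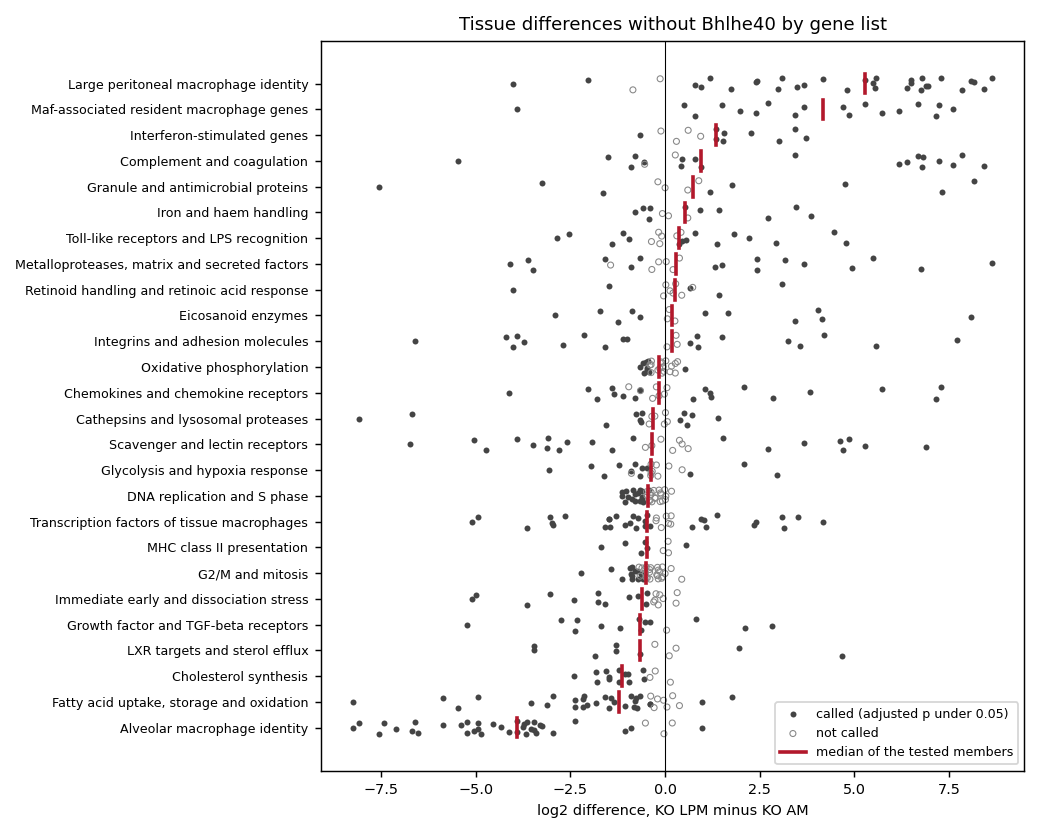
Log2 difference, KO LPM minus KO AM, of each tested gene in the gene lists, with called genes filled, others open and the list median as a red bar. The LPM identity list has its median at 5.29 and the AM identity list at -3.91, while most other lists hold called genes on both sides of 0.

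Called genes of the G2/M and S-phase lists were all lower in KO LPM, but most genes of the G2/M list were not called and the counts depended on single arrays. Of 37 G2/M genes 13 were lower, 0 higher and 24 not called (median -0.50), and of 36 S-phase genes 17 were lower, 0 higher and 19 not called (median -0.45), where 22.8% of all tested genes were lower and 40.0% were called in either direction. The mean log2 signal of the G2/M genes was 5.28, 5.33 and 5.99 in KO LPM and 6.09 and 6.05 in KO AM, so KO LPM replicate 3 stood near the AM arrays. Without that array 24 G2/M genes (median -0.76) and 20 S-phase genes (median -0.58) were lower, and with it as the only KO LPM array 1 (median -0.06) and 5 (median -0.25) were. The G2/M count was 4 without KO AM replicate 1 and 6 without KO AM replicate 2, KO LPM replicate 1 or KO LPM replicate 2, and the S-phase count was 9 without KO AM replicate 1. A replicate block gave 27 lower and 1 higher G2/M genes, and array weights gave 25 lower and 1 higher. The spindle checkpoint kinase Bub1b was 5.28, 5.22 and 5.87 in KO LPM and 7.70 and 7.64 in KO AM (-2.21). Mki67, the usual marker of dividing cells, was 6.48, 6.27 and 7.41 in KO LPM and 7.36 and 7.47 in KO AM and missed the threshold (-0.69, adjusted p = 0.052), but passed it without KO LPM replicate 3 (-1.04, adjusted p = 0.0011). The D-type cyclins were exchanged between tissues. Ccnd1 was 9.69, 8.87 and 9.33 in KO LPM and 5.49 and 4.98 in KO AM (16.7-fold higher), and Ccnd2 was 6.38, 6.66 and 6.61 in KO LPM and 9.70 and 9.74 in KO AM (9-fold lower).

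Of 20 immediate early and dissociation stress genes 12 were lower in KO LPM and 0 higher (median -0.61). Egr2 (-5.09), given above with the transcription factors, had the lowest value of the list. Fosb was 5.93, 6.18 and 5.92 in KO LPM and 11.07 and 10.95 in KO AM (32.0-fold lower, adjusted p = 8e-10), and Fos (-1.78), Atf3 (-2.40) and Egr1 (-1.59) were lower with it. The list's mean signal lay at 7.91 to 8.07 on the KO LPM arrays and 9.34 to 9.38 on the KO AM arrays. AM came from digested lung and LPM from lavage, and the part of that step in these differences cannot be told apart from the tissue. Interferon-stimulated genes leaned the other way, with 8 of 13 higher and 1 lower (median 1.35). Over all tested genes 17.3% were higher and 22.8% lower. In KO AM 5 of the 13 averaged under 4.48. Oas2, an RNA-sensing antiviral enzyme, was 7.81, 8.30 and 7.48 in KO LPM and 4.08 and 4.19 in KO AM (3.73). Gbp3 (3.42), Oasl2 (3.00) and Irf7 (2.28) were higher and Cxcl10 was lower (-0.65).

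Markers of other cells were mostly at background, with some exceptions that moved with the tissue. Over the 16 lung epithelial markers the mean log2 signal was 4.43 to 4.56 on KO LPM arrays and 4.91 to 4.99 on KO AM arrays, with 8 and 6 of them averaging under 4.48. The secretoglobin Scgb1a1 was 2.23, 2.22 and 2.03 in KO LPM and 6.74 and 5.41 in KO AM (-3.91), surfactant protein gene Sftpc was 3.80, 3.63 and 3.29 in KO LPM and 6.22 and 6.22 in KO AM (-2.64), and Cdh1 differed by -2.13. Hopx (1.37) and Abca3 (0.5), on the same list, were higher in KO LPM. The 10 neutrophil markers averaged 4.38 to 4.47 in KO LPM and 4.94 to 5.07 in KO AM, with 7 and 5 under 4.48. Mmp8, Cxcr2 (-1.99) and S100a9 (-1.63) were lower in KO LPM, whereas Csf3r, on the same list, was called higher (0.81).

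The 9 B cell markers averaged 4.79, 4.58 and 4.13 in KO LPM and 4.10 and 4.22 in KO AM, with 4 and 6 under 4.48. Cd79a, part of the B cell receptor, was 5.52, 5.12 and 4.53 in KO LPM and 3.41 and 3.86 in KO AM (1.42), so replicate 3 had the least of the LPM arrays. Cd79b followed the same order (6.30, 6.12 and 5.23 in KO LPM, 4.69 and 4.65 in KO AM), whereas Cd22 was lower in KO LPM (-2.47). Small peritoneal macrophage, monocyte and dendritic cell markers averaged 4.76 to 4.82 in KO LPM and 4.33 to 4.52 in KO AM over 13 genes, 6 and 8 of them under 4.48. Of 8 tested, 4 were higher in KO LPM, namely Mgl2 (2.22), Ccr2 (1.22), Irf4 and Plac8, and 1 was lower, Clec9a (-2.80). The Plac8 call was lost in 8 of 16 alternatives. Mast cell markers, 8 in number, averaged 3.94 to 4.15 in KO LPM and 3.58 to 3.62 in KO AM, with 6 under 4.48 in each, and the 8 endothelial markers 4.22 to 4.37 in KO LPM and 4.46 to 4.51 in KO AM, with 5 and 4 under 4.48 and Vwf lower in KO LPM (-1.23). The 12 mesothelial and fibroblast markers averaged 4.06 to 4.25 in KO LPM and 4.09 to 4.25 in KO AM, with 7 and 9 under 4.48, and the 9 T and NK cell markers 3.75 to 3.95 in KO LPM and 3.70 to 3.80 in KO AM, with 7 under it in each. All 4 eosinophil markers and 3 of 4 platelet and red cell markers were under it in both tissues. The part of such cells in the differences above was not tested.

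Several microRNA host transcripts were among the called genes. Of 86 tested microRNA genes 20 were higher and 3 lower in KO LPM, and 4 of them differed at least 2-fold. That share called is below the 40.0% over all tested genes, of which 17.3% were higher and 22.8% lower. Between WT LPM and WT AM 8 of the microRNA genes were called. Mir99a was 6.14, 6.64 and 7.49 in KO LPM and 3.32 and 3.54 in KO AM (3.33, adjusted p = 0.00026), and the transcript that holds it, Mir99ahg, was 6.02, 5.98 and 5.90 in KO LPM and 3.99 and 4.08 in KO AM (1.93). On the AM side were the neighbours Mir27a (-1.37), Mir24-2 (-1.15) and Mir23a (-0.96). Mir27a was 5.35, 5.56 and 5.12 in KO LPM and 6.30 and 7.12 in KO AM. The probe sets read precursor or host RNA and not the mature microRNA, and these genes were chosen after their values were seen. The mature sequences from RefSeq (GRCm38.p6), shown because the seed sets which transcripts a microRNA can pair with, carry the seed, bases 2 to 8, in capitals. The miR-99a strand lies at chr16:77598940-77598961 (plus strand). The others lie within chr8:84208563-84208896 (plus strand), and no seed is shared between any of the 4.
mmu-miR-99a-5p: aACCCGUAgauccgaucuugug
mmu-miR-27a-3p: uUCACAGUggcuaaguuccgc
mmu-miR-24-3p: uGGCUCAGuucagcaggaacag
mmu-miR-23a-3p: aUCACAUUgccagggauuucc

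Most of the large tissue differences had the same direction and call with and without Bhlhe40. WT LPM and WT AM differed at 4452 genes (38.3% of those tested), 2468 higher (21.2%) and 1984 lower (17.1%) in WT LPM. Of the 326 genes at least 4-fold higher in KO LPM, 324 (99.4%) were also called higher in WT LPM, and of the 368 at least 4-fold lower 367 (99.7%) were called lower. Their median differences were 3.05 in KO and 3.06 in WT for the first group and -3.04 in KO and -2.82 in WT for the other. Read from WT, 359 of 361 genes at least 4-fold higher (99.4%) and all 326 of those lower were called the same way in KO. Across the tested genes the KO and WT differences correlated at 0.951 (Pearson) and 0.81 (Spearman); genes are not independent replicates, and the same 2 tissue preparations and array normalization enter both. A shared call does not show equal size: the 95% interval of the change lay within 2-fold for 198 (60.7%) of the 326 and 236 (64.1%) of the 368.

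Among smaller differences the overlap was lower. Of the 2010 genes higher in KO LPM 1637 (81.4%) were called the same way in WT, which is 66.3% of the 2468 in WT, and of the 2647 lower in KO LPM 1729 (65.3%) were, or 87.1% of the 1984 in WT. Of those called in KO alone, 312 of 372 higher and 777 of 911 lower had the same sign in WT, and the change between genotypes was called for 2 of each. Opposite calls were found at 8 genes, all with differences under 1 log2 unit, of which Rab28 (-0.58 in KO, 0.48 in WT), Sft2d2 (-0.59 in KO, 0.83 in WT) and Stx5a (-0.45 in KO, 0.49 in WT) passed the test of the change itself. The balance of higher and lower calls moves with the scaling of the arrays, so it is not read as a property of either genotype: 43.2% of KO calls were higher in LPM, or 33.7% with arrays centred on their medians.

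The tissue factors were among the genes with shared calls. Gata6 differed by 4.17 in KO and 4.31 in WT (change -0.14, interval -0.66 to 0.38), Pparg by -4.94 in KO and -5.55 in WT, Rarb by 3.10 in KO and 3.43 in WT (change -0.32, interval -0.71 to 0.07), and Maf by 2.39 in KO and 1.64 in WT. None of these 4 changes was called. Maf was 6.32, 6.41 and 6.6 in WT LPM and 4.74 and 4.86 in WT AM, so each KO LPM array stood above each WT LPM array, a pattern of levels that was not tested here.

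**Figure D4:**
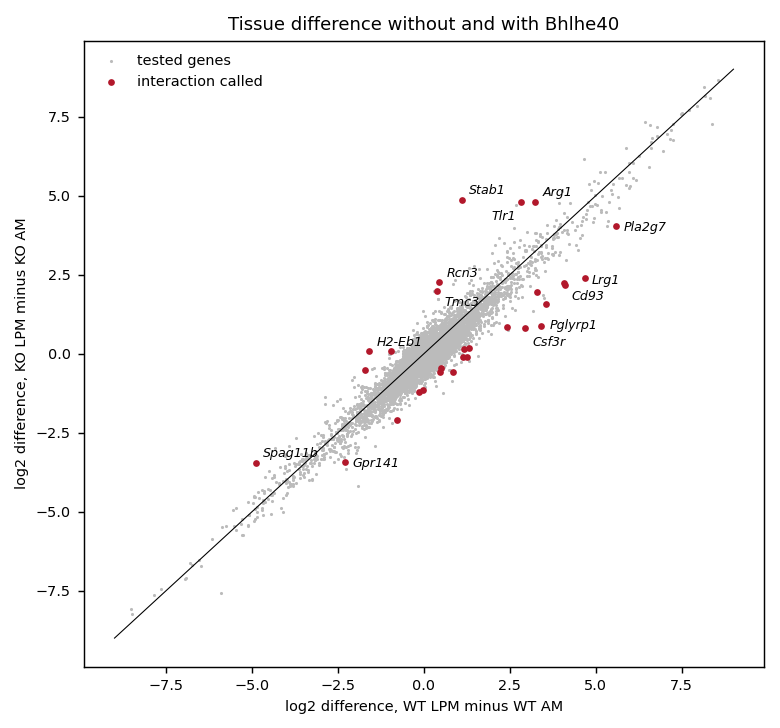
Log2 difference between LPM and AM in KO (y axis) against the same in WT (x axis) for the tested genes, with the line of equality and the 29 genes whose change between genotypes was called in red. Most points follow the line, and Stab1, with 4.87 in KO and 1.11 in WT, lies farthest above it among the named genes.

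The change in the tissue difference between genotypes was called at 29 genes (0.249% of those tested), 9 with a higher KO than WT difference (0.0774%) and 20 with a lower one (0.172%). The count depended on single arrays: it was 9 without KO AM replicate 2, 15 without WT AM replicate 1, 16 without WT LPM replicate 2 or KO LPM replicate 2, 18 without KO AM replicate 1, 19 without WT LPM replicate 1 and 57 without WT AM replicate 2. With 2 AM arrays per genotype the median gene's 95% interval for the change reached 0.46 to either side. Stab1, an endocytic scavenger receptor of resident macrophages, had the largest called positive change. It was 9.22, 9.26 and 8.82 in KO LPM and 4.50 and 3.97 in KO AM, against 5.6, 5.62 and 6.15 in WT LPM and 4.69 and 4.67 in WT AM. The tissue difference was 4.87 in KO and 1.11 in WT, a change of 3.76 ± 0.28 (interval 3.16 to 4.36, adjusted p = 7.6e-06). KO LPM and WT LPM arrays did not overlap, and the AM arrays of both genotypes were at or near background.

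Tlr1, the partner of TLR2 in sensing lipopeptides, was 7.44, 7.76 and 8.26 in KO LPM and 3.09 and 2.97 in KO AM, against 5.92, 6.21 and 5.98 in WT LPM and 3.11 and 3.33 in WT AM (change 1.97, interval 1.39 to 2.55, adjusted p = 0.0033). Arg1, which hydrolyses arginine in alternatively activated macrophages, was 9.61, 9.26 and 9.81 in KO LPM and 4.98 and 4.52 in KO AM, against 8.36, 8.05 and 7.91 in WT LPM and 4.92 and 4.83 in WT AM (change 1.58, adjusted p = 0.0089). At both, KO LPM arrays exceeded WT LPM arrays without overlap. The Arg1 call was lost without WT AM replicate 1 (1.53, adjusted p = 0.067) and without KO AM replicate 2 (1.35, adjusted p = 0.09). Rcn3, a calcium-binding protein of the endoplasmic reticulum, and the transmembrane channel-like gene Tmc3 were called between tissues in KO (2.26 for Rcn3, 1.98 for Tmc3) and not in WT (0.45 and 0.38), with changes of 1.81 (adjusted p = 0.047) and 1.60 (adjusted p = 0.0017). The Rcn3 change stood close to the threshold and was lost in 11 of 21 alternatives, among them leaving out any array but KO LPM replicate 1 and WT LPM replicate 3.

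MHC class II genes held 3 of the called changes. Of 9 tested, 8 were lower in WT LPM than in WT AM (median -1.06), against 5 lower in KO (median -0.49), and all 3 called changes were positive. The count of 5 was 3 without KO AM replicate 1. H2-DMa, a gene of class II peptide loading, had the wider gap in KO (-1.69 in KO, -1.06 in WT), a change that was not called (-0.63, adjusted p = 0.44). H2-Eb1 was 7.28, 7.15 and 7.30 in KO LPM and 7.20 and 7.12 in KO AM, with overlapping arrays (0.08, adjusted p = 0.72), against 6.98, 7.25 and 7.18 in WT LPM and 8.58 and 8.88 in WT AM (-1.60). The change was 1.67 (interval 1.21 to 2.13, adjusted p = 0.0017), and the arrays that stood apart were WT AM. H2-Ab1 was 8.89, 8.88 and 9.01 in KO LPM and 9.49 and 9.43 in KO AM, against 8.92, 9.21 and 9.25 in WT LPM and 10.84 and 10.83 in WT AM (change 1.18, adjusted p = 0.029). H2-Oa, a subunit of the peptide exchange regulator, changed by 1.05 (adjusted p = 0.032). The invariant chain gene Cd74 (0.97, adjusted p = 0.14) and H2-Aa (1.01, adjusted p = 0.13) had changes of like size that were not called. The H2-Ab1 change was lost without any array but WT LPM replicate 3, at adjusted p of 0.053 to 0.13, and the H2-Oa change without any but WT LPM replicate 3 and KO LPM replicate 3, at 0.055 to 0.17. Spag11b, a beta-defensin-like gene, was the remaining positive change: it was 3.14, 3.55 and 3.13 in KO LPM and 6.58 and 6.87 in KO AM, against 8.21 and 7.69 in WT AM (1.43, adjusted p = 0.011, lost without WT AM replicate 1 at 0.076 and without KO AM replicate 1 at 0.11).

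At the genes with a negative change the KO difference was lower than the WT difference. Csf3r, the G-CSF receptor, was 8.58, 8.42 and 8.47 in KO LPM and 7.46 and 7.90 in KO AM, against 9.20, 9.44 and 9.38 in WT LPM and 6.31 and 6.48 in WT AM (change -2.13, adjusted p = 0.0007), so KO was lower in LPM and higher in AM. Cd93, a C-type lectin-like receptor, was 8.99, 9.58 and 9.45 in KO LPM and 7.16 and 7.20 in KO AM, against 9.36, 9.43 and 9.59 in WT LPM and 5.28 and 5.47 in WT AM (-1.92, adjusted p = 0.0007). Here LPM overlapped between genotypes and AM did not. Lrg1, a leucine-rich glycoprotein, was 8.80, 8.63 and 9.06 in KO LPM and 6.41 and 6.48 in KO AM, against 11.21, 10.77 and 11.41 in WT LPM and 6.6 and 6.32 in WT AM (-2.28, adjusted p = 0.0085, lost without KO AM replicate 2 at 0.064). Pglyrp1, a peptidoglycan-binding protein, was 5.98, 5.61 and 5.74 in KO LPM and 4.93 and 4.85 in KO AM, against 8.38, 8.47 and 8.21 in WT LPM and 4.78 and 5.13 in WT AM. Its change of -2.51 only just passed (adjusted p = 0.047) and did so in 6 of 21 alternatives, not when any single array was left out.

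Pla2g7 was 9.22, 9.51 and 9.14 in KO LPM and 5.07 and 5.43 in KO AM, against 10.37, 10.56 and 10.41 in WT LPM and 4.79 and 4.93 in WT AM (-1.55, adjusted p = 0.0059), and was lost without KO AM replicate 2 (adjusted p = 0.064). The ubiquitin ligase Nedd4 (-1.83), Stard13 (-1.98), the kinase Stk26 (-1.55), the pantetheinase Vnn3 (-1.35) and Sft2d2 (-1.42) completed the 10 largest. At Nedd4 the arrays were 6.42, 6.47 and 6.37 in KO LPM and 4.22 and 4.12 in KO AM, against 8.05, 8.27 and 8.21 in WT LPM and 4.03 and 4.17 in WT AM. All 6 of these genes were called between tissues in KO, and all but Sft2d2 in the same direction as in WT. Stk26 and Sft2d2 were not called without KO AM replicate 2 (adjusted p = 0.054 and 0.074), Sft2d2 also not without WT AM replicate 1 (0.075), and Vnn3 was called in 3 of the 10 settings that leave out 1 array.

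**Figure D5:**
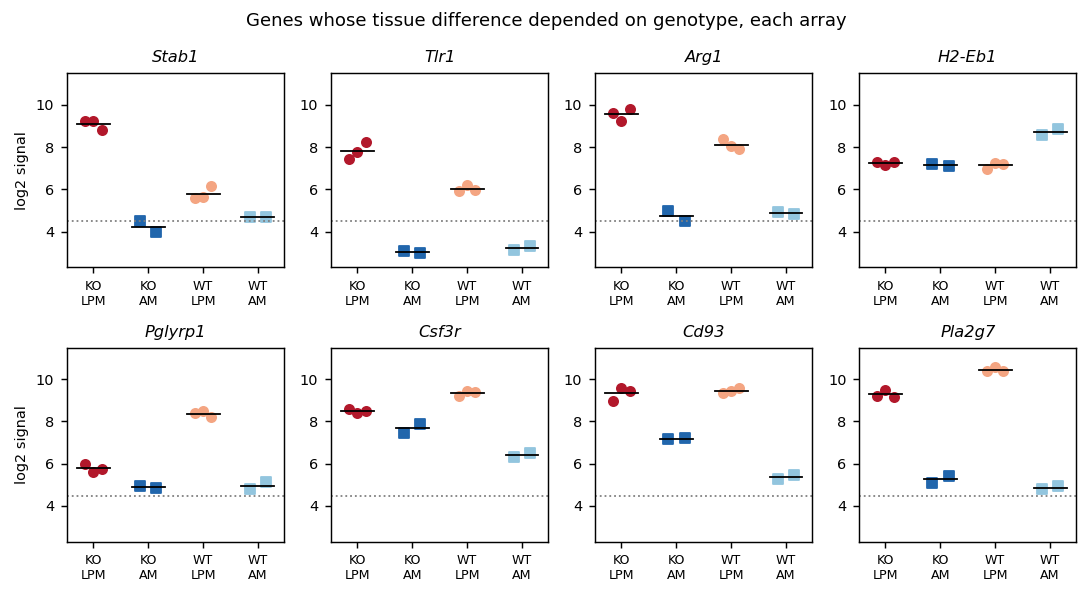
RMA log2 signal on each array of KO LPM, KO AM, WT LPM and WT AM for 8 genes whose change between genotypes was called, with group means as bars. KO LPM is higher than WT LPM at Stab1, Tlr1 and Arg1, WT AM stands above the other groups at H2-Eb1, and at Csf3r and Cd93 the KO AM arrays lie above WT AM.

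A list of resident macrophage genes linked to Maf was higher in KO LPM at 17 of 18 genes and lower at 1, Mrc1, with a median of 4.18. In WT 15 were higher and 1 lower (median 2.13). The gap between these medians is not the typical change of a member. Gene by gene the median change between genotypes was 0.69, with 16 of 18 above 0, against -0.09 over all tested genes. The list's mean signal was 8.96 to 9.15 in KO LPM and 5.27 to 5.28 in KO AM, against 7.95 to 8.52 in WT LPM and 5.40 and 5.35 in WT AM. Of its members Stab1 passed the test of the change. Lyve1, the hyaluronan receptor, was 9.16, 9.88 and 9.81 in KO LPM and 4.99 and 4.84 in KO AM, against 6.54, 7.90 and 7.83 in WT LPM and 4.82 and 4.65 in WT AM (change 2.01, interval 0.96 to 3.07, adjusted p = 0.13). The folate receptor Folr2 (1.48, adjusted p = 0.14) and Cd163 (1.40, adjusted p = 0.10) had positive changes that were not called.

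Genes called between tissues in KO and not in WT mostly did not pass the test of the change itself. Among the 6 largest in each direction, Dnah12 (2.34), Rcn3, Tmc3, Cd28 (1.97), Srpx (1.74) and Prok2 (1.73) were higher and Pdk4 (-2.18), Ccl2 (-1.81), S100a9 (-1.63), Sla (-1.63), Egr1 (-1.59) and Fgr (-1.48) lower in KO LPM, and the change was called for Rcn3 and Tmc3 only. For the other 10 its adjusted p ran from 0.16 (Cd28) to 0.96 (Ccl2). Ccl2 was -1.81 in KO (adjusted p = 0.035) and -1.64 in WT (adjusted p = 0.056). It was not called in KO without KO AM replicate 2 (-1.22, adjusted p = 0.29), KO LPM replicate 2 (adjusted p = 0.076) or KO LPM replicate 3 (adjusted p = 0.078), nor was Sla without KO AM replicate 1 (adjusted p = 0.082) or 2 (adjusted p = 0.07).

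Promoter windows of 4 genes on which these results turn are printed for the sequence context, as the 250 bases before the start in RefSeq (GRCm38.p6), on the gene's strand. Stab1 and Tlr1 had the largest called positive changes with genotype, and Serpinb2 and Itgax are among the genes highest in LPM and in AM. Windows of all tested genes were searched on both strands for CACGTG, the E-box that Bhlhe40 binds, for AGATAA and TGATAA, forms of the GATA motif, and for TGACTCA, the AP-1 motif. Capitals mark the matches. Tlr1 (chr5:64932700-64932949, minus strand) holds CACGTG 195 bases before the start and TGATAA, as TTATCA, 77 bases before it. Stab1 (chr14:31168642-31168891, minus strand) holds none of these letters in this window. Serpinb2 (chr1:107511260-107511509, plus strand) holds AGATAA 41 bases before the start. Itgax (chr7:128129300-128129549, plus strand) holds AGATAA 217 bases and TGACTCA, as TGAGTCA, 56 bases before it. Tlr1 and Serpinb2 each have 2 windows in the table, and the one with more matches is shown.
Stab1: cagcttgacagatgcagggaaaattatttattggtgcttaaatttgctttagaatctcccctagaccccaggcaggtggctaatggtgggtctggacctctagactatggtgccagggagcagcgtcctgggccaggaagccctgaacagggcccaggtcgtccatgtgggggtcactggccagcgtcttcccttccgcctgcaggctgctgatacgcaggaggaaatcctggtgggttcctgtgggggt
Tlr1: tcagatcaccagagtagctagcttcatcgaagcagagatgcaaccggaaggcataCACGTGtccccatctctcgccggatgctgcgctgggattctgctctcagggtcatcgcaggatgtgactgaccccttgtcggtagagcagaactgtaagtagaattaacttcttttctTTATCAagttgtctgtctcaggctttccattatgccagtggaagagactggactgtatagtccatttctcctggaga
Serpinb2: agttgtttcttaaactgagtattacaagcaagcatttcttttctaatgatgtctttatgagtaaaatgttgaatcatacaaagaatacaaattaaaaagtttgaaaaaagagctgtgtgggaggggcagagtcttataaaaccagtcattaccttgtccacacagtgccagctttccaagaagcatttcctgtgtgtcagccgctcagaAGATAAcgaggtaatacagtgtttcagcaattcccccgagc
Itgax: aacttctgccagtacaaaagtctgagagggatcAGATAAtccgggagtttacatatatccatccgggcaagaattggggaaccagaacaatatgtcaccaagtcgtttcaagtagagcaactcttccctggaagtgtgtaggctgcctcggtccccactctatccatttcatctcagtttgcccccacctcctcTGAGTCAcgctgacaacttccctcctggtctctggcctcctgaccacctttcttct

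Over all 11814 windows of 9352 tested genes CACGTG was present in 8.35%, AGATAA in 5.95%, TGATAA in 3.84% and TGACTCA in 3.35%. In the 326 windows of 250 genes at least 4-fold higher in KO LPM these shares were 5.52%, 6.75%, 5.83% and 4.91%. In the 409 windows of 293 genes at least 4-fold higher in KO AM they were 9.54%, 8.80%, 5.13% and 5.62%. Of 29 windows of 23 genes with a called change between genotypes, 3.45% (that of Tlr1) held CACGTG. A match describes letters and not binding.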

How the data were processed

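Values were log2 signals per probe set on 1-colour Affymetrix mouse gene arrays, in a table that the authors deposited (16 arrays, 30177 probe sets, values from 1.036 to 13.841). They were made with RMA, which corrects background, quantile-normalizes and summarises probes, per the submitters' processing notes. The sources used here give neither its version nor which arrays were processed as a set. Quantile normalization removes differences in total RNA per cell, and the sign of small shifts depends on scaling.

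Groups and replicate numbers came from sample titles. Of the probe sets 21789 had 1 gene symbol in the platform annotation, 1621 several and 6767 none; only the first kind was used, and 21698 matched the gene table by Entrez ID. For 999 of 19938 genes with several probe sets, the probe set with the highest mean stood for the gene. Genes above the array median on at least 2 arrays were tested: 11634, with 8304 left out. Group means over all 16 arrays (7 groups, 9 residual degrees of freedom plus 6.61 from the prior, within-group SD 0.171 at the median gene) were fitted with limma 3.58.1 in R 4.3.3. P-values were adjusted by Benjamini-Hochberg, threshold 0.05, separately in 3 comparisons: KO LPM minus KO AM, WT LPM minus WT AM, and their difference, called the change between genotypes.

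Members, the 36 gene lists and the tests were chosen with earlier results of these data known. Named genes were a set of regulators, receptors and markers, the 12 largest rises and falls without overlap (predicted or numbered symbols left out), up to 4 called members per list and direction with uncalled ones where a count turns on them, the 10 largest changes between genotypes in each direction, and the 6 largest differences in each direction called in KO alone. The microRNA genes and the printed promoters fall outside that rule and were chosen after their values were seen, as were further list members beyond 4 and genes with opposite calls.

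The fit was tested on simulated data of known differences before use, in 20 runs with 200 of 11634 genes changed. For the KO comparison it recovered 85.2% of 2-fold and 36.4% of 1.5-fold differences. For the change between genotypes it recovered 49.1% and 7%.

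Alternatives were a second quantile normalization, centring on array medians, a dim filter dropped or moved to the level of 4.48 from olfactory receptor genes, averaged probe sets, a robust variance with intensity trend, a fit of only the arrays compared, array weights, a replicate block, and each array left out in turn. Leaving out 1 of 2 arrays assumes that the lone array varies like the other groups. Centring on the median of tested genes and using KO LPM replicate 3 as the only KO LPM array were chosen after seeing the data. Tables were handled in Python 3.11.15 with pandas 2.3.3 and figures drawn with matplotlib 3.10.9.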

Additional observations from a re-analysis of the deposited data

Results flagged for a closer look

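The tissue difference differed between genotypes at 19 of the named genes, by a test of that difference itself (limma, adjusted p under 0.05 over 11634 genes). In each case the value is the KO tissue difference minus the WT tissue difference in log2 units. It was positive at Stab1 (3.76), Tlr1 (1.97), Rcn3 (1.81), H2-Eb1 (1.67), Tmc3 (1.60), Arg1 (1.58), Spag11b (1.43), H2-Ab1 (1.18) and H2-Oa (1.05). It was negative at Pglyrp1 (-2.51), Lrg1 (-2.28), Csf3r (-2.13), Stard13 (-1.98), Cd93 (-1.92), Nedd4 (-1.83), Stk26 (-1.55), Pla2g7 (-1.55), Sft2d2 (-1.42) and Vnn3 (-1.35). Of these 19 genes, 8 were called under all 21 alternatives: Stab1, Tlr1, Tmc3, H2-Eb1, Csf3r, Stard13, Cd93 and Nedd4.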

How the results depend on the processing

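The KO comparison called 4657 genes, and 3460 (without KO AM replicate 1) to 4698 (without KO LPM replicate 3) with 1 array left out, 4519 to 5472 under the planned other settings, and 3361 with KO LPM replicate 3 as the only KO LPM array. The WT count of 4452 ran from 3732 to 4050 with 1 array left out. The number of changes between genotypes, 29, was the least stable: it was 45 with the mean of probe sets, 62 with only the arrays compared, 61 with array weights and 10 with KO LPM replicate 3 as the only KO LPM array. Leaving out 1 array gave 9 (without KO AM replicate 2) to 57 (without WT AM replicate 2), with 15 without WT AM replicate 1, 18 without KO AM replicate 1, and 16 without WT LPM replicate 2 or KO LPM replicate 2; the cause was not tested. The replicate block gave 59 changes between genotypes, 5056 KO and 4191 WT calls. Same-numbered arrays correlated in their deviations at -0.05 and 0.034 in KO and -0.052 and -0.022 in WT. With 2 AM arrays per genotype the deviations of the AM arrays mirror each other. These values therefore cannot tell whether the numbers pair the arrays. Scaling moved the splits: 2010 higher and 2647 lower in KO became 1569 and 3080 with arrays centred on their medians, which moved the median KO difference to -0.105. Centring on the median of tested genes, chosen after seeing the data, gave 14 positive and 10 negative changes between genotypes against 9 and 20, and 2103 higher and 2482 lower in WT against 2468 and 1984. The median change between genotypes was -0.09, and 0.047 with that centring. Without KO AM replicate 2 there were 5 positive and 4 negative changes. Among named genes, no called KO difference or change between genotypes turned its sign under these alternatives. Of 202 called KO differences among 208 named genes, 173 were called under every alternative, and of 19 changes between genotypes 8 were. Those lost most often were Pglyrp1 (15 of 21), Rcn3 (11), H2-Ab1 (10), H2-Oa (9) and Vnn3 (9). Signal near background limits the size of the largest folds: the lower group averaged under 4.48 at 154 of 326 genes at least 4-fold higher and 133 of 368 lower in KO LPM. The number of arrays limits what change between genotypes could be called.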
